A study of Mus musculus with 6 samples.

Results

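The genes described here are inhibitors of Wnt signalling inside Wnt-receiving cells or at their membrane, and low-density lipoprotein receptor-related proteins. Several of the inhibitors are feedback genes, and Lrp5 and Lrp6 serve as Wnt coreceptors. The genes were chosen by symbol, as Axin1, Axin2, Apc, Nkd1, Nkd2, Sp5, Apcdd1, Lrp4, Lrp5 and Lrp6. All 10 symbols were found, each on 1 row, among 46517 genes in the files, and all 10 passed the filter on low counts that left 19640 genes for testing. RNA came from activated stem cells of the hair germ, taken from back skin at an age of 60 days and on day 3 after depilation. The sort used P-cadherin, Sca-1, CD34, integrin b1 and YFP as markers. All mice carried Sox9-CreER, a tamoxifen-inducible Cre under the control of Sox9, a gene of follicle stem cells, and a YFP reporter behind a floxed stop at Rosa26. The WT group had no further allele, LEF1cKO mice had Lef1fl/fl, and LEF1_TCF7dKO mice (below, the double knockout) had Lef1fl/fl with Tcf7-/-, so Lef1 is lost only where Cre acted but Tcf7 is lost in every tissue. Each of the 3 groups had 2 libraries, and the labels give the sex as mixed.

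In canonical Wnt signalling, a Wnt protein brings a Frizzled receptor together with Lrp5 or Lrp6, which draws Axin to the membrane and stops the complex of Axin, Apc and kinases from marking beta-catenin for destruction. Beta-catenin then binds LEF/TCF factors on DNA and switches on target genes, several of which, such as Axin2, Nkd1, Sp5 and Apcdd1, restrain the pathway in turn. In the hair germ this pathway drives the entry of the follicle into growth, and Lef1 and Tcf7 encode 2 of the LEF/TCF factors.

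Promoter sequence was at hand for 4 of the 10 genes. The 250 bases before the RefSeq start site (build GRCm38.p6) are shown for 3 of these 4. They are Axin2 and Nkd2, which were higher in the double knockout, and Sp5, the scarcest of the 10, which passed in no comparison. Capitals mark CTTTG, the core of the LEF/TCF binding motif, or its complement CAAAG.
Axin2 (chr11:108920099-108920348, + strand): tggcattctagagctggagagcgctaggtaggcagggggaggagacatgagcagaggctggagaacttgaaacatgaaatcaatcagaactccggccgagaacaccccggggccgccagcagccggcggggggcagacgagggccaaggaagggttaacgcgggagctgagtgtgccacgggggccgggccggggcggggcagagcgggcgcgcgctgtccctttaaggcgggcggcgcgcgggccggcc
Nkd2 (chr13:73847632-73847881, − strand): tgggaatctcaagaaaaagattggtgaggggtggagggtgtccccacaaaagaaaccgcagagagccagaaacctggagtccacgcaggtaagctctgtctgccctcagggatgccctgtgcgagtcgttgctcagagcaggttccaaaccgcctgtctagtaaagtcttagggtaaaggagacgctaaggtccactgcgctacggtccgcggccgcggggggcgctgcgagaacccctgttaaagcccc
Sp5 (chr2:70474673-70474922, + strand): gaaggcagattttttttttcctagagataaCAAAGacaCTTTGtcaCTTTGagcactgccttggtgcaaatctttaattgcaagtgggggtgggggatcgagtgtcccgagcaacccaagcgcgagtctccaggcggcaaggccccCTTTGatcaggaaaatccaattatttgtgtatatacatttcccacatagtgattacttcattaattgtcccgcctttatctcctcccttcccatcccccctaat
The Sp5 window held 4 matches to the core on either strand, which begin 220, 212, 204 and 104 bases before the start. A window with at least 1 match was common (48.6% of 32851 windows of the same length), and one with 4 or more was not (0.773%). These shares take no account of base content. The Sp5 window was 46% G or C, against 69.2% for Axin2 and 58.4% for both Nkd1 and Nkd2. The match at 104 bases extends to CTTTGAT, which 3.21% of windows hold on either strand, and the one that begins at 220 bases is part of AACAAAG, the complement of CTTTGTT, which 5.03% hold. The Axin2, Nkd1 and Nkd2 windows held 0 matches to the core, which says only that these letters are not in these windows. The RefSeq window of Nkd1 lies inside the gene as GENCODE M21 draws it (start at 88521354 on chromosome 8), so the 2 sources place its start apart.

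The libraries held 40480694 to 63220022 expected counts each. Levels below are TPM, RSEM's relative transcript abundance scaled for length, as mean ± SD over the 2 libraries of a group unless a library is named. Differences are edgeR log2 fold changes ± SE on the counts, and each adjusted p comes from edgeR's quasi-likelihood test, Benjamini-Hochberg adjusted over all 19640 genes and called below 0.05; "rose" and "fell" are used only for genes that passed. Whether each library is a different animal is not stated, so p-values measure only how far these samples differ, and that spread may be technical. Hair germ and bulge markers were read in every library (0 of 12 under 1 TPM), but 10 of the 12 were called in the double knockout against WT, where 37.6% of all genes were. Of these, 6 rose (Krt14, Krt15, Itga6, Cd34, Nfatc1 and Lgr6) and 4 fell (Cdh3, Lgr5, Sox9 and Lhx2). Cdh3, which encodes the sort marker P-cadherin, was at 116 to 134 TPM in the WT and LEF1cKO libraries and at 65.9 and 85.9 in the double knockout, where Cd34, a bulge marker, was at 42.0 and 30.9 against 8.72 to 17.8 in the others. Ly6a, which encodes the sort marker Sca-1, was at 111 and 97.3 TPM there against 14.7 to 45.9 in the others. Their part in the results below was not tested. Lef1 was read at 21.4 and 20.4 TPM (WT), 13.5 and 8.37 (LEF1cKO) and 9.22 and 9.42 (double knockout). Tcf7, in the same order, stood at 26.9 and 36.0, 29.3 and 27.8, and 13.7 and 18.0 TPM. Transcript of a targeted gene can remain outside the deleted part, so these levels do not measure the proteins. Lef1 did not pass in LEF1cKO against WT (-0.92 ± 0.25, adjusted p = 0.282) and fell in the double knockout (-1.27 ± 0.25, adjusted p = 0.0122), as did Tcf7 (-1.37 ± 0.21, adjusted p = 0.00641). Summed TPM of markers of several other cell types was higher in the double knockout. It reached 1586 and 1914 for 10 fibroblast and dermal papilla genes (168 to 333 in WT and 410 to 909 in LEF1cKO). For 7 endothelial and mural genes it reached 72 and 196 (12.7 to 25.4 in WT and 13.8 to 18.0 in LEF1cKO). Differentiated epidermis markers (10 genes) reached 12988 and 13694 against 1351 to 1671 in WT and 3309 to 3442 in LEF1cKO, and immune markers (7 genes) 720 and 770 against 35.4 to 98.8 in WT and 173 to 276 in LEF1cKO; 0 of the genes in these 4 lists had a count of 0 in any library. Against WT, 9 of 10 epidermis, 8 of 10 fibroblast, 6 of 7 endothelial and 5 of 7 immune genes rose there, as did 3 of 7 melanocyte and Schwann and 1 of 5 sebaceous genes, while 7 of 9 tested hair shaft and root sheath genes fell. In the fibroblast and dermal papilla list, Vcan fell from 21.9 to 7.955 mean TPM (-1.54 ± 0.26, adjusted p = 0.0079). Corin was lower (0.89 to 0.58 mean TPM) and did not pass, so the sum does not speak for each gene of that list. The highest endothelial and sebaceous sums were both in double knockout replicate 1, as the plot of marker sums shows.

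**Figure D1:**
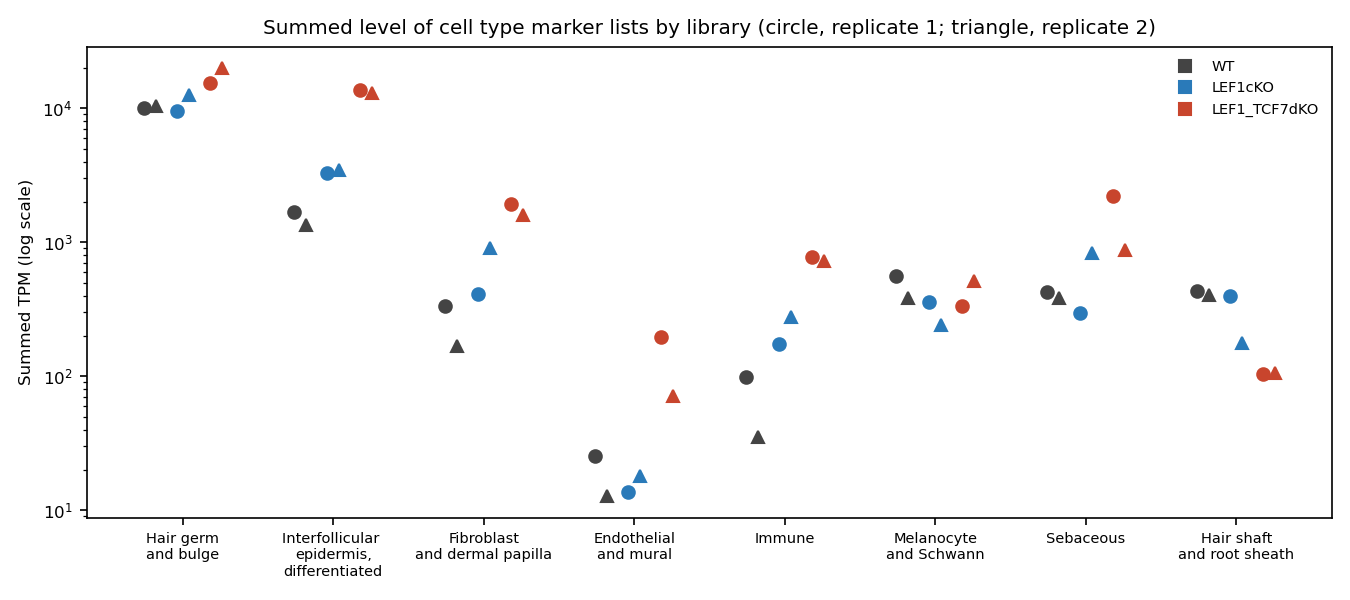
Summed TPM (log scale) of 8 lists of cell type markers, 1 point per library, circles for replicate 1 and triangles for replicate 2 of each group. The double knockout libraries lie above the WT libraries for the epidermis, fibroblast, endothelial, immune, sebaceous, and hair germ and bulge lists. The hair germ and bulge sum rests largely on keratins, with Krt5 and Krt14 at 5032 and 3494 mean TPM in WT. Of its 12 genes, 6 rose and 4 fell (Cdh3, Lgr5, Sox9 and Lhx2) in the double knockout against WT. The double knockout libraries lie below WT for hair shaft and root sheath and overlap WT for melanocyte and Schwann. Endothelial markers were at 196 TPM in double knockout replicate 1 against 72 in replicate 2.

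In WT hair germ cells the coreceptor Lrp5 and the membrane inhibitor Apcdd1 had the highest levels of the 10 genes, at 63.5 ± 5.25 and 60.3 ± 3.78 TPM, and their libraries overlapped. Axin1 (44.3 ± 2.94 TPM), Lrp6 (39.9 ± 0.163) and Axin2 (26.9 ± 1.48) followed, each apart from its neighbours in both libraries. Apc (23.0 ± 0.580) and Lrp4 (20.6 ± 5.02) overlapped each other. Nkd1 was at 7.22 ± 1.80 TPM, Nkd2 at 1.58 ± 0.361 and Sp5 at 0.935 ± 0.346. The inhibitors that bind Dishevelled and the repressor Sp5 were thus the least abundant transcripts, and Sp5 rested on only 46.8 and 94.97 expected counts. In the double knockout the order differed: Apcdd1 was first (92.2 ± 11.5 TPM), Lrp5 (71.0 ± 0.523) and Lrp4 (65.8 ± 0.325) came next, and Axin2 (40.005 ± 1.79) stood beside Axin1 (38.9 ± 1.153), with libraries that overlapped.

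**Figure D2:**
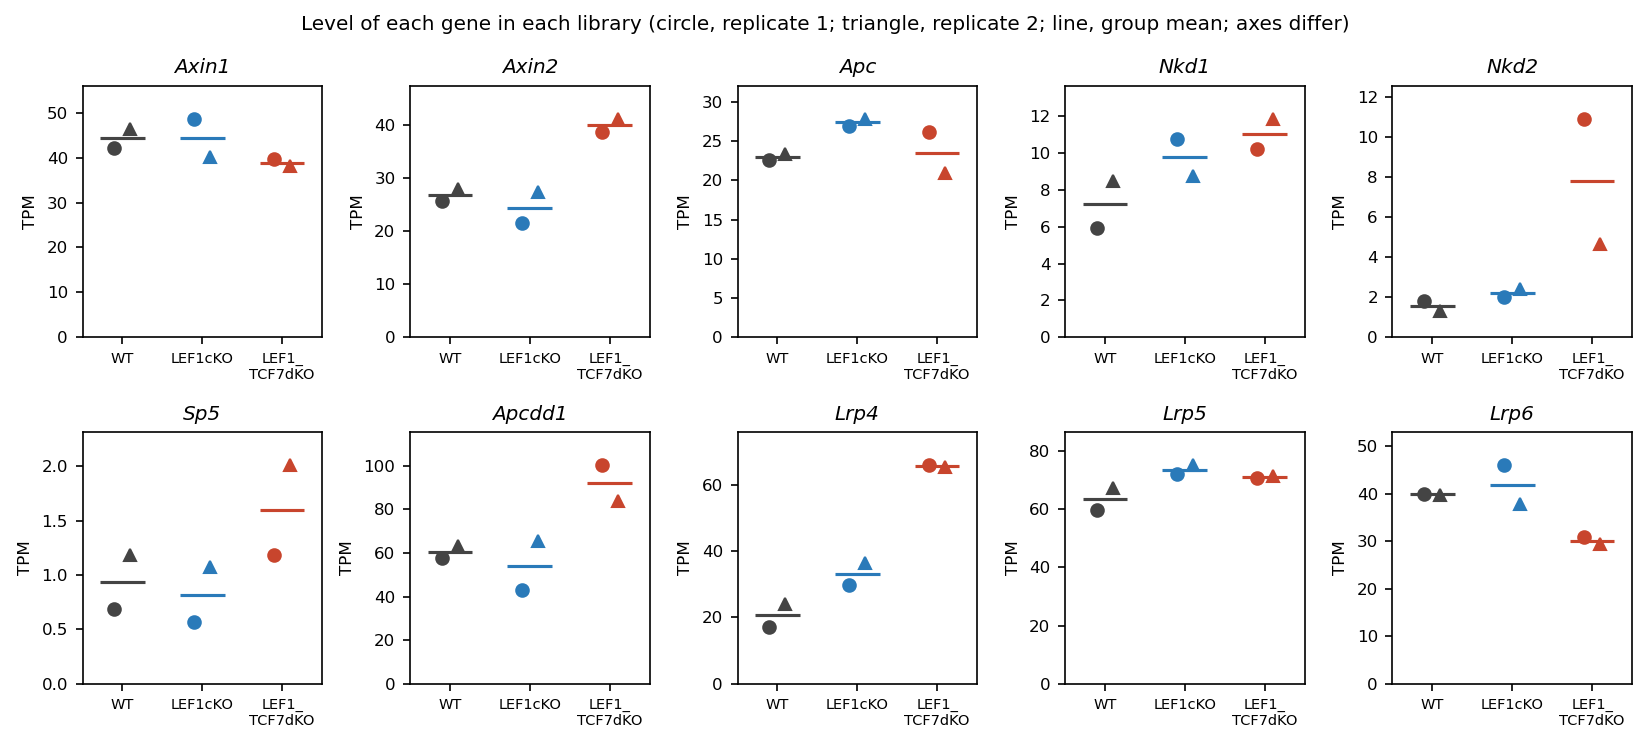
TPM of each of the 10 genes in each library, with a panel and its own linear axis from 0 for each gene, circles for replicate 1, triangles for replicate 2 and a line at the group mean. Lrp4, Axin2 and Nkd2 are highest in the 2 double knockout libraries, Lrp6 is lowest there, and the WT and LEF1cKO points of Axin2 overlap.

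In the LEF1cKO libraries, where Lef1 itself did not pass (adjusted p = 0.282), none of the 10 genes passed the test against WT. The count was 0 by edgeR, with 2 genes at an unadjusted p under 0.05 (Lrp4 and Axin2), and 0 by DESeq2 and by limma voom; 0.601% of all genes were called. The median log2 fold change of the 10 was 0.06, beside 0.01 over all genes tested. TPM did not overlap between LEF1cKO and WT for 5 of the 10, all higher in LEF1cKO (Apc, Nkd1, Nkd2, Lrp4 and Lrp5), against 41.7% of all genes in either direction (28.3% higher and 13.4% lower). Lrp4, Nkd2 and Axin2 rose and Lrp6 fell in the double knockout against WT. These 4 of 10 compare with 37.6% of all genes called (18% rose and 19.6% fell), so the share is near the background. The median log2 fold change was 0.45, beside 0.01 over all genes, and TPM did not overlap for 8 of the 10 (6 higher, 2 lower) against 74.1% of all genes (43.4% higher and 30.7% lower). Against LEF1cKO, 4 rose (Axin2, Lrp4, Nkd2 and Apcdd1) and 1, Lrp6, fell, 5 of 10 where 25.2% of all genes were called (11.2% rose and 14.1% fell). There the median was 0.41, beside 0.01 over all genes, and TPM did not overlap for 9 of the 10 (5 higher, 4 lower) against 64.3% of all genes (35% higher and 29.4% lower). The 2 comparisons with the double knockout share its libraries and the 2 with WT share the WT libraries, so they are not separate lines of evidence.

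**Figure D3:**
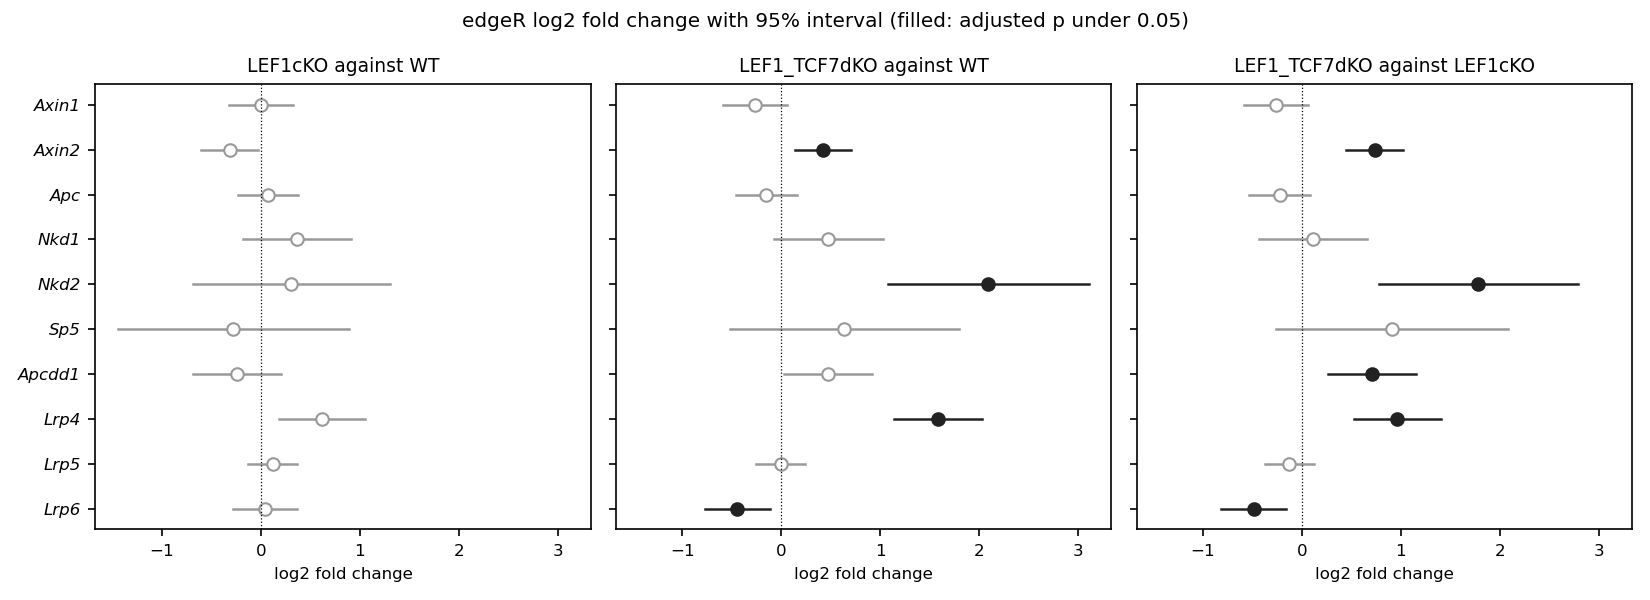
edgeR log2 fold changes of the 10 genes with 95% intervals in the 3 comparisons, filled points for adjusted p under 0.05 and open points for the rest. All 10 points are open for LEF1cKO against WT, 4 are filled for the double knockout against WT and 5 against LEF1cKO, with the widest intervals for Nkd2 and Sp5.

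Axin2 encodes the inducible scaffold of the destruction complex and is the most used readout of Wnt signalling. It stood at 25.8 and 27.9 TPM (WT), 21.5 and 27.4 (LEF1cKO) and 38.7 and 41.3 (double knockout). Both double knockout libraries lay above all others, while LEF1cKO and WT overlapped. In the double knockout Axin2 rose 1.34-fold over WT (0.42 ± 0.12, adjusted p = 0.0345) and 1.66-fold against LEF1cKO (0.73 ± 0.12, adjusted p = 0.0139). The LEF1cKO difference from WT was -0.31 ± 0.12 (adjusted p = 0.466, 95% interval -0.60 to -0.03). The call against WT was lost when any 1 of the 4 libraries compared was left out (highest adjusted p = 0.214, without WT replicate 1), with log2 fold changes between 0.32 and 0.52. Against LEF1cKO the call was lost without LEF1cKO replicate 1 or double knockout replicate 1. Over the leave-outs that log2 fold change ran from 0.64 to 0.83. Without double knockout replicate 1 almost no gene was called between the knockouts, so that loss is not particular to Axin2. On log2(TPM + 0.1), limma gave adjusted p = 0.0628 against WT and 0.0587 against LEF1cKO. Exons of Axin2 share 209 bases with the antisense gene Gm11670, whose own level was 0.08 to 1.39 TPM. The labels do not say whether counting used strand.

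Axin1, which encodes the constitutive scaffold of the same complex, was measured at 42.2 and 46.4 TPM (WT), 48.7 and 40.3 (LEF1cKO) and 39.7 and 38.1 (double knockout). The double knockout libraries were the lowest of the 6, but the difference from WT did not pass (-0.26 ± 0.13, adjusted p = 0.165, 95% interval -0.59 to 0.06). It did pass without LEF1cKO replicate 2 (adjusted p = 0.0383) and with only those 2 groups in the fit (0.0381). Against LEF1cKO the value was -0.26 ± 0.13 (adjusted p = 0.184), passing without LEF1cKO replicate 2 (0.0236). In LEF1cKO against WT the log2 fold change was 0.00 ± 0.13 with a 95% interval of -0.32 to 0.32. Axin1 made up 62.0% and 62.4% of the summed Axin TPM (WT), 69.4% and 59.5% (LEF1cKO) and 50.6% and 48.0% (double knockout). The summed level of both genes was 68.0 and 74.3 TPM (WT), 70.2 and 67.6 (LEF1cKO) and 78.4 and 79.3 (double knockout). The sum was thus highest, and the share of Axin1 lowest, in the 2 double knockout libraries, given here as values with no test. Apc, the large scaffold that binds beta-catenin in the complex, was at 22.6 and 23.4 TPM (WT), 26.9 and 27.9 (LEF1cKO) and 26.1 and 20.9 (double knockout). Its count-based values against WT were 0.07 ± 0.13 for LEF1cKO and -0.15 ± 0.13 for the double knockout (adjusted p = 0.928 and 0.378), with 95% intervals of -0.23 to 0.38 and -0.46 to 0.15. Between the knockouts the value was -0.23 ± 0.13 (adjusted p = 0.224). The LEF1cKO libraries were higher than WT in TPM. The double knockout libraries lay on both sides of the WT ones, and its direction against WT flips on the log2(TPM + 1) scale (0.02).

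Nkd2 and Nkd1 encode the Naked cuticle proteins, which bind Dishevelled and dampen the signal from the receptor. Nkd2 was read at 1.83 and 1.32 TPM (WT), 2.0 and 2.42 (LEF1cKO) and 10.9 and 4.66 (double knockout), from 232, 192, 204, 286, 937 and 437 expected counts. The groups did not overlap in the double knockout, and its replicate 1 was far above replicate 2. There Nkd2 rose 4.26-fold against WT (2.09 ± 0.42, adjusted p = 0.0127) and 3.43-fold against LEF1cKO (1.78 ± 0.41, adjusted p = 0.0296). Without double knockout replicate 1 the log2 fold change against WT was 1.41, still called, and against LEF1cKO it was 1.09 and not called. Almost no gene was called between the knockouts without that library, so this loss is not particular to Nkd2. The LEF1cKO value against WT was 0.31 ± 0.41 (adjusted p = 0.901, 95% interval -0.68 to 1.30). The double knockout call against WT was lost without WT replicate 2 (0.0813), and the one against LEF1cKO without every library but double knockout replicate 2 (highest 0.124, without LEF1cKO replicate 1) and on log2(TPM + 1) and log2(TPM + 0.1) (0.0548 and 0.0734). The library with the highest Nkd2 was also the one with the highest endothelial and mural sum (196 TPM, against 72 in double knockout replicate 2). Its fibroblast (1914 against 1586), sebaceous (2213 against 878), epidermis (13694 against 12988) and immune (770 against 720) sums were the highest too. Its hair germ and bulge, melanocyte and Schwann, and hair shaft and root sheath sums were below those of double knockout replicate 2. The part of these markers in the Nkd2 result was not tested. In bulk RNA, more cells of a type and more RNA per cell cannot be told apart.

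Nkd1 was the more abundant of the pair, at 5.95 and 8.49 TPM (WT), 10.8 and 8.77 (LEF1cKO) and 10.2 and 11.9 (double knockout). All 4 knockout libraries were above both WT libraries in TPM, but neither difference passed (0.36 ± 0.23 in LEF1cKO, adjusted p = 0.709, and 0.47 ± 0.23 in the double knockout, adjusted p = 0.147). The 95% intervals ran from -0.18 to 0.91 and from -0.07 to 1.02. Between the knockouts the value was 0.11 ± 0.22 (adjusted p = 0.748). Nkd1 made up 76.5% and 86.5% of the summed Nkd TPM (WT), 84.3% and 78.4% (LEF1cKO) and 48.4% and 71.8% (double knockout). The sum of both was 7.78 and 9.81 TPM in WT and 21.2 and 16.5 in the double knockout, given here as values with no test.

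**Figure D4:**
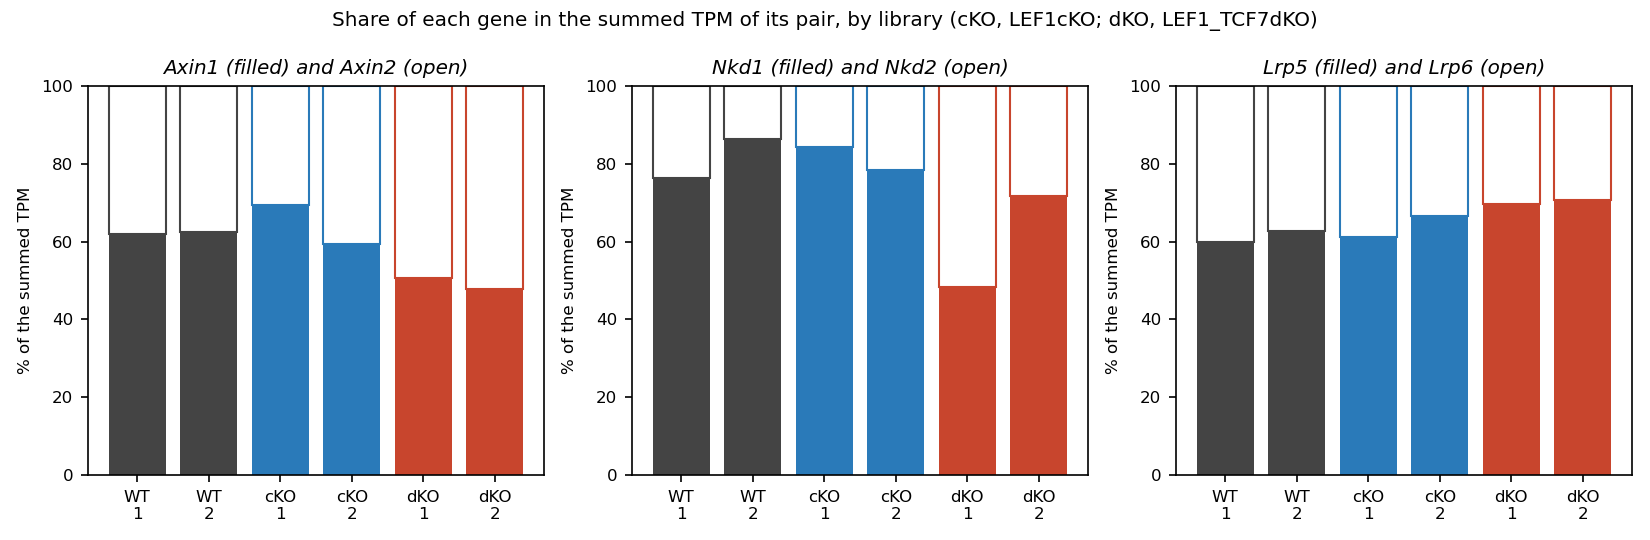
Share of the summed TPM of each pair of related genes, as percent from 0 to 100, 1 bar per library, the first gene filled and the second open. Axin1 takes 62.0% and 62.4% of its pair in WT and 50.6% and 48.0% in the double knockout, while Lrp5 goes from 59.9% and 62.8% to 69.6% and 70.8%.

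Sp5 encodes a zinc finger repressor that is a direct Wnt target in several tissues and competes for target gene promoters. It was read at 0.69 and 1.18 TPM (WT), 0.57 and 1.07 (LEF1cKO) and 1.18 and 2.01 (double knockout), from 34.9 to 107 expected counts. The groups overlapped, apart from the double knockout against LEF1cKO. Its log2 fold changes of -0.28 ± 0.48 in LEF1cKO and 0.64 ± 0.47 in the double knockout against WT, and 0.91 ± 0.48 between the knockouts, did not pass (adjusted p = 0.929, 0.333 and 0.203). The 95% interval in the double knockout against WT ran from -0.52 to 1.79, which takes in the log2 fold change of Axin2 (0.42) as well as 0. This is the gene whose promoter window, printed above, holds 4 core matches. Apcdd1 encodes a membrane glycoprotein that binds Wnt and Lrp proteins and inhibits signalling, and is mutated in an inherited form of hair loss. It stood at 57.6 and 62.97 TPM (WT), 43.0 and 65.4 (LEF1cKO) and 100.3 and 84.0 (double knockout). Both double knockout libraries were above all others, and the LEF1cKO libraries spanned the WT ones. Apcdd1 rose 1.64-fold against LEF1cKO (0.71 ± 0.18, adjusted p = 0.0381), and missed the threshold against WT (0.47 ± 0.18, adjusted p = 0.0884; 0.0218 and 0.0241 without LEF1cKO replicate 1 and 2, 0.0216 with only those 2 groups in the fit and 0.0488 with the 10 CPM filter). The call against LEF1cKO was lost without any library but LEF1cKO replicate 2. Over the leave-outs that log2 fold change ran from 0.47 to 0.98. Without double knockout replicate 1 almost no gene was called between the knockouts, so that loss is not particular to Apcdd1. The call was also lost with only the double knockout and LEF1cKO in the fit (adjusted p = 0.0691) and on both TPM scales (0.0638 and 0.0935). Its LEF1cKO value against WT was -0.24 ± 0.18 (adjusted p = 0.774).

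Lrp4 had the smallest adjusted p of the 10 in the double knockout against WT. Its product binds the Lrp inhibitors Sostdc1 and sclerostin, serves as the agrin receptor at the nerve-muscle synapse, and can restrain Wnt signalling in skin appendages. Lrp4 (chr2:91457511-91513779, + strand, GRCm38) was read at 17.1 and 24.2 TPM (WT), 29.9 and 36.4 (LEF1cKO) and 66.0 and 65.5 (double knockout). The 3 groups did not overlap, and the double knockout libraries were nearly equal. In the double knockout Lrp4 rose 2.99-fold over WT (1.58 ± 0.18, adjusted p = 0.00393) and 1.95-fold against LEF1cKO (0.96 ± 0.18, adjusted p = 0.0183). Its 1.53-fold higher value in LEF1cKO against WT did not pass (0.62 ± 0.18, adjusted p = 0.321, unadjusted p = 0.0133, 95% interval 0.18 to 1.05). The call against WT was kept in all 6 leave-outs (highest adjusted p = 0.0317) and in the 11 other alternatives. The call against LEF1cKO was lost without LEF1cKO replicate 1 (0.0817), double knockout replicate 1 (0.0923) or replicate 2 (0.0628), and on log2(TPM + 0.1) (0.0542). The sums of the epidermis, fibroblast and immune markers follow the same order of groups as Lrp4, WT then LEF1cKO then double knockout, with no overlap; their part in the result was not tested.

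Lrp5 and Lrp6, the paired coreceptors that bind Wnt beside Frizzled, differed in their values. Lrp6 (chr6:134446476-134566965, − strand, GRCm38) was at 39.99 and 39.8 TPM (WT), 46.0 and 37.8 (LEF1cKO) and 30.9 and 29.4 (double knockout). Both double knockout libraries were below the other 4. Lrp6 fell 1.36-fold against WT (-0.44 ± 0.13, adjusted p = 0.0440) and 1.40-fold against LEF1cKO (-0.49 ± 0.13, adjusted p = 0.0445). Both calls are marginal. The one against WT was lost without any 1 of the 4 libraries compared, with log2 fold changes from -0.48 to -0.40 over the leave-outs. The one against LEF1cKO was lost without any library but LEF1cKO replicate 2, with log2 fold changes from -0.66 to -0.31. Without double knockout replicate 1 almost no gene was called between the knockouts, so that loss is not particular to Lrp6. Calls were lost against WT and LEF1cKO also with RLE size factors (0.0508 and 0.0528), the 10 CPM filter (0.0835 and 0.0618), log2(TPM + 1) (0.0671 and 0.0587) and log2(TPM + 0.1) (0.102 and 0.0944), and against LEF1cKO with only those 2 groups in the fit (0.0921). The direction held in all of these. In LEF1cKO against WT the value was 0.05 ± 0.13 (adjusted p = 0.965). Lrp5 stood at 59.8 and 67.2 TPM (WT), 72.2 and 75.1 (LEF1cKO) and 70.6 and 71.4 (double knockout). Its count-based values were 0.12 ± 0.10, -0.01 ± 0.10 and -0.13 ± 0.10 in LEF1cKO against WT, the double knockout against WT and between the knockouts (adjusted p = 0.803, 0.955 and 0.380). The 95% interval in the double knockout against WT, -0.26 to 0.24, is the narrowest of the 10 genes there, while its TPM was higher than WT in both libraries and its direction flips to 0.16 on the log2(TPM + 1) scale. Lrp5 made up 59.9% and 62.8% of the summed Lrp5 and Lrp6 TPM (WT), 61.1% and 66.5% (LEF1cKO) and 69.6% and 70.8% (double knockout). The sum was 99.8 and 107 TPM (WT), 118 and 113 (LEF1cKO) and 101 and 101 (double knockout), so in the double knockout it lay within the WT range.

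The files also give a length for each gene and library, in which RSEM weights the transcripts of a gene by their abundance, so a shift shows that the estimated mix of transcripts differed. For Lrp6 (6 transcripts) it was 7276 and 7343 bases (WT), 7441 and 7670 (LEF1cKO) and 8073 and 7590 (double knockout). All 4 knockout libraries were thus longer than WT, and with effective length as an offset the log2 fold change of Lrp6 in the double knockout against WT was -0.54 in place of -0.44 (adjusted p = 0.0287). For Lrp4 (4 transcripts) the length was 7528 and 7517 bases (WT), 7529 and 7651 (LEF1cKO) and 7789 and 7753 (double knockout), and the offset left its log2 fold change at 1.53. Apc (9 transcripts) went the other way, with 10204 and 10255 bases (WT), 9615 and 9450 (LEF1cKO) and 10032 and 9785 (double knockout). Axin1, Axin2 and Nkd2 spanned 307, 300.5 and 419 bases over the 6 libraries, and Lrp5 spanned 147. Nkd2 and Lrp5 were longest in the 2 WT libraries, Axin2 was shortest in the 2 LEF1cKO libraries, and Axin1 showed no order by group. Sp5 and Apcdd1 had a single length in every library and Nkd1 varied by 3.72 bases.

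Of 24 further genes of the destruction complex and of Dishevelled, 10 fell and 2 rose in the double knockout against WT (median log2 fold change -0.29). Of all genes, 19.6% fell and 18% rose there. Against LEF1cKO 7 fell and 1 rose (median -0.23), beside 14.1% and 11.2% of all genes. Against WT 0 passed in LEF1cKO by edgeR (1 at an unadjusted p under 0.05, 1 by DESeq2, 0 by limma voom). Cxxc4 and Cxxc5, which encode Dishevelled-binding zinc finger proteins, fell in the double knockout, from 3.73 to 0.565 and from 23.6 to 6.23 mean TPM (-2.88 ± 0.34 and -2.06 ± 0.26, adjusted p = 0.00402 and 0.00444). Ccdc88c, which encodes the Dishevelled partner Daple, rose from 5.29 to 14.3 TPM (1.30 ± 0.18, adjusted p = 0.00535). Of 12 partners and modulators of the Lrp coreceptors, 9 were tested. In the double knockout 2 rose and 2 fell against WT (median 0.12), beside 18% and 19.6% of all genes. Against LEF1cKO 2 rose and 1 fell (median 0.13), beside 11.2% and 14.1% of all genes. In LEF1cKO against WT 0 passed by edgeR (0 at an unadjusted p under 0.05, 0 by DESeq2 and limma voom). Dkk2, which encodes a secreted ligand of Lrp5 and Lrp6, was at 0.24 and 0.12 TPM in WT and 4.65 and 2.59 in the double knockout (4.20 ± 0.51, adjusted p = 0.00417). Kremen1, which encodes a Dickkopf receptor, rose from 38.8 to 55.6 TPM (0.38 ± 0.11, adjusted p = 0.0427). D930015E06Rik, the older symbol of Tmem131l, whose product promotes Lrp6 turnover, fell by the counts (-0.36 ± 0.11, adjusted p = 0.0411), while its TPM overlapped, at 52.5 and 49.5 in WT and 50.4 and 48.8 in the double knockout. The 3 others were not tested because their counts were too low (Dkk1, Dkk4 and Sost).

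Of 15 other Wnt feedback and target genes, 14 were tested. In the double knockout 5 rose and 5 fell against WT (median -0.09), beside 18% and 19.6% of all genes. Against LEF1cKO 3 rose and 5 fell (median -0.16), beside 11.2% and 14.1% of all genes. In LEF1cKO against WT 0 passed by edgeR (0 at an unadjusted p under 0.05, 0 by DESeq2 and limma voom). Notum, which encodes a secreted enzyme that inactivates Wnt proteins, was at 2.32 and 2.98 TPM in WT and 9.12 and 9.92 in the double knockout (1.91 ± 0.31, adjusted p = 0.00739). Tcf7l1 and Tcf7l2, the other LEF/TCF genes, fell (-1.81 ± 0.18 and -0.75 ± 0.11, adjusted p = 0.00331 and 0.00633).

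The search for genes like Axin2 covered 10460 tested genes with a mean of at least 5 TPM. It left out the 10 genes described here and symbols that hold Rik or start with Gm and a number. The genes whose pattern over the 6 libraries was most like that of Axin2 were Rsrp1, Ckmt1 and Dnase1l1. Their root mean square differences from Axin2 in centred log2 CPM were 0.06, 0.08 and 0.09. By this measure the closest to Axin2 among the 10 genes described here was Apcdd1 (0.15), followed by Sp5 (0.32). The farthest was Nkd2 (0.77). The measure takes in the size of a change as well as its direction. Nkd2 rose in the double knockout as Axin2 did, but by more, while Lrp6, which fell there, was nearer (0.54).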

How the data were processed

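RNA-seq of 6 libraries was used, grouped by the sample titles. Bowtie2 2.2.9, RSEM 1.2.30 and mm10 are named in the submitters' processing notes (gene annotation: not given in the sources used here). Deposited expected counts come from RSEM, which divides a read that matches several genes among them. Per the file headers the authors also deposited RSEM's TPM and FPKM, of which FPKM was not used. A deposited TPM table of the series held the same values (largest difference 0). RSEM's effective length was 50 bases below the length for nearly all genes. The 92 spike-in rows held 0 counts and were dropped.

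Rounded expected counts went into edgeR 4.0.16 under R 4.3.3 (TMM, filterByExpr by group, quasi-likelihood F test, Benjamini-Hochberg at 0.05). All 6 libraries were fitted together, with 3 residual degrees of freedom, a biological coefficient of variation of 0.232 and 3.11 prior degrees of freedom. SE is the log2 fold change divided by the square root of F. The procedure was tested on simulated data. Depth gives a floor of 3 counts, 0.0475 to 0.0741 CPM, for counting error only. Positions came from GENCODE M21 (GRCm38, which is mm10) by Ensembl identifier, for 10 of 10 genes, and promoter windows from RefSeq by symbol. Members of each background list were named by rule, as the 3 with the smallest p among those called in the double knockout against WT; likeness to Axin2 used log2 CPM with prior count 2. The members and lists were chosen with earlier results of these data known. Alternatives used DESeq2 1.42.0 and limma 3.58.1 as well as other scalings, filters and sets of libraries. Replicates of a group differed by more than sampling noise (chi-square divided by its degrees of freedom was 23.3, 87.5 and 64.7), so none was treated as a library deposited more than once. This does not show that they are separate animals. Leave-outs assume that the remaining single library varies as the other groups do.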

Additional observations from a re-analysis of the deposited data

How the results depend on the processing

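The count of 0 of 10 genes called in LEF1cKO against WT held under all 17 alternatives, 6 of which leave out 1 library. In the double knockout against WT, where 3 rose and 1 fell, the number called ran from 1 to 6 when a library was left out (1 to 4 rises and 0 to 2 falls). The number that fell was 0 with RLE size factors, with a filter of 10 CPM in 2 libraries, with limma on log2(TPM + 1) or log2(TPM + 0.1) and with the replicate block, and 2 with only the 2 groups compared. The number called was 2 with limma on log2(TPM + 0.1). Between the knockouts, where 4 rose and 1 fell, the number called ran from 0 to 5 when a library was left out (0 to 3 rises and 0 to 2 falls). Rises numbered 2 on log2(TPM + 1) and 0 on log2(TPM + 0.1). Falls numbered 0 with RLE size factors, with the 10 CPM filter, on either TPM scale, with only the 2 groups compared and with the replicate block. Calls in all numbered 2 and 0 on the TPM scales, 3 with only the 2 groups compared and 3 with the replicate block. The 10 CPM filter left out Sp5. Lrp4 against WT was called under all 17 alternatives.

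The labels do not say whether the replicate numbers pair the libraries. Deviations from the group means of libraries with the same number correlated at -0.04, 0.06 and -0.03. These values show no shared shift over all genes, and they cannot exclude a pairing that touches only some genes. The replicate block changed the number of all genes called from 118 to 80, from 7389 to 6435 and from 4952 to 3635. With the replicate block, Lrp6 was not called against WT or LEF1cKO (adjusted p = 0.0512 and 0.0577), nor Apcdd1 against LEF1cKO (0.0533).

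Directions that turned were all of values that did not pass. For Axin1 in LEF1cKO against WT (0.0006) they were -0.0066 with RLE size factors, -0.0028 with no filter, -0.0071 with DESeq2, -0.0101 with limma voom, -0.0653 with effective length as an offset and -0.0062 with the replicate block. Over the leave-outs this value ran from -0.1867 to 0.1657, that of Sp5 there from -0.7475 to 0.1723 (0.0718 without LEF1cKO replicate 1) and that of Lrp6 there from -0.1308 to 0.202. In the double knockout against WT, Apc turned to 0.024 and 0.0246 on log2(TPM + 1) and log2(TPM + 0.1). Lrp5 turned to 0.0673 with library size only, 0.1278 with the 10 CPM filter, 0.161 and 0.1632 on the TPM scales and 0.0219 with the length offset, and ran from -0.077 to 0.0812 over the leave-outs. Nkd1 between the knockouts ran from -0.0834 to 0.3195. The cause of these turns was not tested. On log2(TPM + 0.1) the median of all genes in the double knockout against WT was 0.13, where 59.8% of calls were rises, against 0.01 and 47.9% in the test used here; on log2(TPM + 1) 58.1% were. In LEF1cKO rises were 37.3% of calls, 24.3% and 19.7% on the TPM scales, 24.1% by limma voom, 19.3% with only the 2 groups compared, 51.2% with no filter and 59.0% by DESeq2.

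How many of all genes were called also moved. In LEF1cKO against WT it was 118, and 422 with no filter, 612 by DESeq2 and 78 without WT replicate 2. In the double knockout against WT it was 7389, and 2671, 1968 and 2994 without WT replicate 1, WT replicate 2 and double knockout replicate 1. Between the knockouts it was 4952, and 2248 on log2(TPM + 0.1), 2585 with only the 2 groups compared, 2201, 2124, 1652 and 2884 without WT replicate 1, WT replicate 2, LEF1cKO replicate 1 and double knockout replicate 2, and 1 without double knockout replicate 1. A gene's call can therefore be lost there with its own fold change little moved.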
